A study of Saccharomyces cerevisiae with 2 samples.

Results

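The 5′ external transcribed spacer (5′ ETS) comprises the first 700 nucleotides of the yeast 35S pre-rRNA, upstream of the 18S rRNA. All 700 of its nucleotides, out of 6858 in the whole 35S pre-rRNA, were taken by position from the pileups of a CRAC experiment. Their own hits set no border, but the spacer was chosen with earlier results of these data known. In CRAC, a tagged protein is linked to RNA in living cells by UV light and purified stringently, and the pieces of RNA that remain bound to it after RNase digestion are sequenced. The experiment addressed which RNAs Rbp95 contacts, a nucleolar assembly factor of early pre-60S particles, and it comprised 1 library from cells with Rbp95-HTP and 1 library from cells with no tag. According to the sample labels, both strains were of the BY4741 background (the methods of the study name BY4742 for the untagged strain), carried HTP (His-Tev-ProtA) on Rbp95 or no tag, and received no other treatment than the UV crosslinking (100 s) that both shared. They were grown to an OD of 0.6 in YMM lacking tryptophan with glucose. The design text of the deposited series names Nap1 as the tagged protein, and the library was taken as Rbp95-HTP by its title. The tag was at the C-terminus of Rbp95, and the control reports what is purified without any tagged protein. With 1 library per condition, no difference between the libraries could be tested, and the values below describe these 2 libraries.

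The 5′ ETS is transcribed first and folds together with the U3 snoRNA and many proteins into the 90S particle, also called small subunit processome. U3 base-pairs with the 5′ ETS at a pair of sites and with the 18S region, and this pairing is required for the early cleavages of the pre-rRNA. Cleavage at A0 within the spacer and at A1 at the 5′ end of the 18S rRNA removes the 5′ ETS, which is then degraded. None of its sequence is present in the mature ribosome or in pre-60S particles. In what follows, the A0 site was placed at nucleotide 610 and the U3 pairing sites at nucleotides 281 and 470. These positions are approximate and were not derived from the data.

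A hit is a read that covers a nucleotide, and the upward steps of the pileup give a lower bound of the number of reads. The pileups were limited to 100000 reads by the authors, and the libraries held at least 97296 reads with Rbp95-HTP and at least 99994 reads in the control on the whole 35S pre-rRNA. Both numbers lie near this limit, so their near equality does not show that the libraries are comparable. Hits are set side by side without scaling, and the total depth is unknown. In the control, 5 positions of read starts held 90% of the reads, compared with 83 with Rbp95-HTP. This left few control reads for other places. The highest nucleotide of the Rbp95-HTP pileup lies in the 25S rRNA and had 66665 hits, and that of the control, also in the 25S rRNA, had 35268. The labels give 16 PCR cycles, and whether copies of the same molecule were collapsed is not given in the sources used here. Intervals (95%, Wilson) therefore cover counting error only.

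With Rbp95-HTP, the covered nucleotides of the 5′ ETS fell into 6 separate stretches. They are shown here with 5 nucleotides of flanking sequence on either side, as DNA, 5′ to 3′, and the capitals mark nucleotides with at least 1 hit. Numbers are nucleotides of the 35S pre-rRNA.
Stretch 93 to 187: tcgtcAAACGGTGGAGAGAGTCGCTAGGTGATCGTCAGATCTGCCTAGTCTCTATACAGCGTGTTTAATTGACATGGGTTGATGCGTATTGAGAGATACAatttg
Stretch 228 to 270: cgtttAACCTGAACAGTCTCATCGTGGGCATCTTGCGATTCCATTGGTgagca
Stretch 482 to 508: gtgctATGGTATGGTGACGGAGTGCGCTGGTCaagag
Stretch 517 to 551: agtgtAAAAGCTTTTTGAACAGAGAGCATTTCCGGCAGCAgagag
Stretch 605 to 622: tcaatAAGTATCTTCTAGCAAGAgggaa
Stretch 629 to 657: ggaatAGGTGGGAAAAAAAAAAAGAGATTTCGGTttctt

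In the control, 1 stretch held nearly all hits, and it is shown in the same way because no Rbp95-HTP read fell on it.
Control stretch 401 to 444: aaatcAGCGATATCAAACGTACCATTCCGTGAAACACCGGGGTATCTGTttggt
In the R64 annotation, the 5′ ETS of the first annotated rDNA unit (ETS1-1) occupies chrXII:457733-458432 on the minus strand. The stretches correspond there to chrXII:458246-458340, chrXII:458163-458205, chrXII:457925-457951, chrXII:457882-457916, chrXII:457811-457828 and chrXII:457776-457804, and the control stretch to chrXII:457989-458032. All of them lie within the spacer and none within a mature rRNA. The rDNA is repeated, and 2 units are annotated in full. The pileup is that of RDN37-1, the first of them, and how reads that match several copies were placed is not given in the sources used here.

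Reads with Rbp95-HTP covered 247 nucleotides of the 5′ ETS, or 35.3%, compared with 56.5% of all nucleotides of the 35S pre-rRNA, and 231 of the 247 had at least 10 hits. In the control, 119 nucleotides or 17.0% were covered, compared with 18.8% of the 35S pre-rRNA. Both libraries shared 46 nucleotides, which was 18.6% of those covered with Rbp95-HTP and 38.7% of those covered in the control, and 380 nucleotides had no hit in either. Over the whole 35S pre-rRNA, the shared nucleotides were 28.3% of those covered with Rbp95-HTP and 85.1% of those covered in the control, and 2792 had no hit in either.

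The 5′ ETS took 30614 hits with Rbp95-HTP, 1.05% of all 35S hits, while it makes up 10.2% of the length. At least 992 reads began in it, which was 1.02% of the 35S reads (0.958 to 1.08%). In the control it took 53586 hits or 1.33% of the 35S hits, from at least 1276 reads or 1.28% (1.21 to 1.35%). The total over the spacer was therefore lower with Rbp95-HTP, at 0.571 hits per control hit. This order rested on the control stretch alone. It turned when the 25S rRNA was left out of the total, with 4.82% for the control and 13.1% for Rbp95-HTP. Of what then remained, 95.1% lay in the 5.8S rRNA in the control, compared with 11.9% with Rbp95-HTP. The turned order thus depends on the 5.8S rRNA being kept in the total. Outside the control stretch, the control had 159 hits from 4 reads in the 5′ ETS, and the 30614 hits with Rbp95-HTP were 193 times as many.

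**Figure D1:**
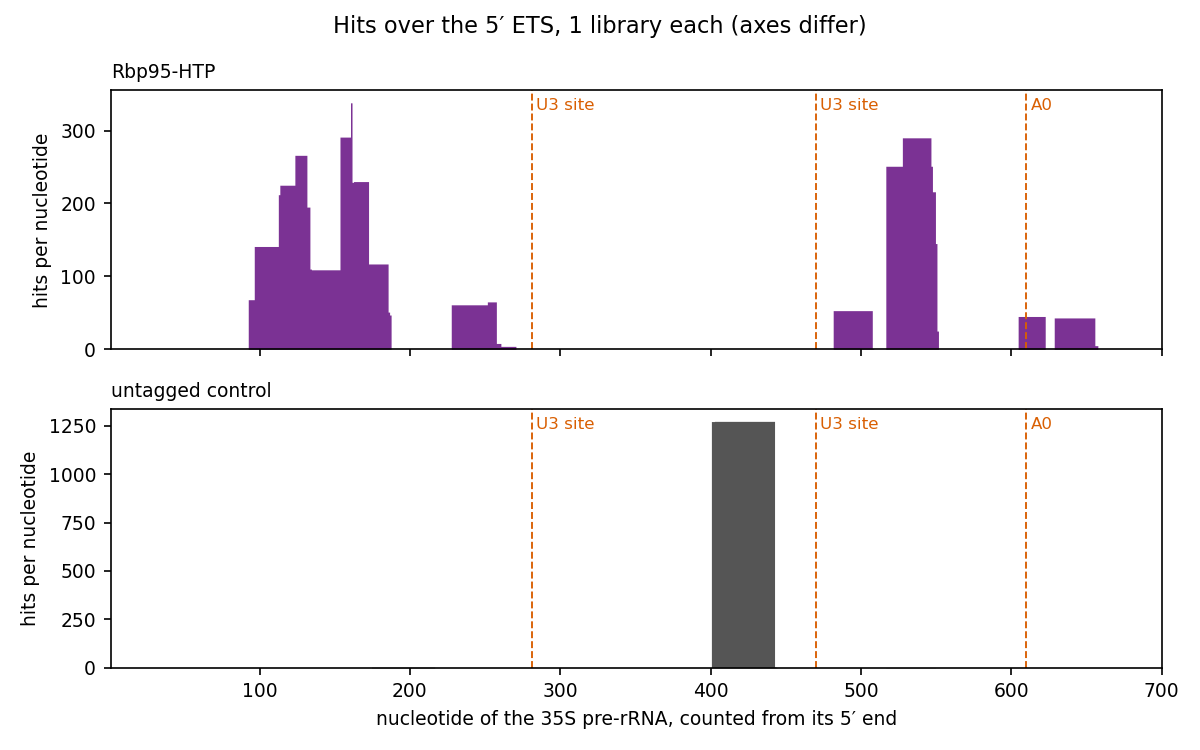
Hits per nucleotide (y axis, linear, a different scale for each library) over nucleotides 1 to 700 of the 35S pre-rRNA (x axis), with Rbp95-HTP above and the untagged control below, and dashed lines at the U3 pairing sites and A0. The Rbp95-HTP hits reach at most 338 in 6 stretches on either side of the U3 sites, and the control hits form 1 block of up to 1272 between these sites.

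Nucleotide by nucleotide, 234 of the 320 positions of the 5′ ETS covered in either library, or 73.1%, had at least 2 times as many hits with Rbp95-HTP as in the control, with fewer than 3 hits counted as 3. The share over the whole 35S pre-rRNA was 86.6%. At 42 positions, or 13.1%, the control was at least 2 times higher, compared with 6.03% over the 35S pre-rRNA. These 42 positions were nucleotides 401 to 442, a single block of control reads. The 320 positions include all 44 nucleotides of the control stretch, where Rbp95-HTP had no hit, and neighbouring nucleotides share reads. The lower positions thus came from 1 place, which also lowered the share of higher ones. The difference from the 35S pre-rRNA is therefore not read as a feature of the spacer.

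Most of the Rbp95-HTP signal lay in the first and the fourth stretch, which together held 82.8% of the hits of the 5′ ETS. The longest stretch, nucleotides 93 to 187, held 53.0% of them, with 47 to 338 hits at each nucleotide. It was built from at least 496 reads, 0.510% of the 35S reads (0.467 to 0.557%), that began at 8 positions. The largest group, a net 182 reads, began at nucleotide 154, followed by 73 at nucleotide 97, 71 at nucleotide 113, 68 at nucleotide 93, 47 at nucleotide 161, 41 at nucleotide 124, 13 at nucleotide 114 and 1 at nucleotide 163. In its 95 nucleotides the hits never fell below those of the last nucleotide, so the groups overlapped into 1 continuous region.

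The nucleotide with the most hits in the 5′ ETS was A161 in this stretch, with 338 hits or 0.347% of the 35S reads (0.312 to 0.386%), and the control had none there. At A161 a net 109 reads ended and a net 47 began, so the maximum was a single nucleotide where groups of reads met. When hits were averaged over 21 nucleotides, the highest point moved to nucleotide 536 in the fourth stretch, with a mean of 286 hits. A further local maximum, of 266 hits, was found at nucleotide 124, again where reads overlapped, with none in the control. Over the 35S pre-rRNA, 474 nucleotides or 6.91% were higher than A161, which reached 0.507% of the highest nucleotide.

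The fourth stretch, nucleotides 517 to 551, lies between the second U3 site and A0 and ended 59 nucleotides before the latter. It had 25 to 290 hits and held 29.8% of the hits of the 5′ ETS. A net 251 reads began at nucleotide 517, the largest group of read starts in the spacer with 25.3% of all, and 39 began at nucleotide 528. Their ends were spread over the last 6 nucleotides, where the net number of ended reads was 39 at nucleotide 546, 35 at 547, 71 at 549, 120 at 550 and 25 at 551. The control had 1 read on this stretch, which also began at nucleotide 517 and ended at 549. The same first nucleotide thus occurred in both libraries, with 251 reads in one and 1 in the other.

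The other 4 stretches were each covered by at most 65 reads, and their reads had few distinct ends. On nucleotides 228 to 270, a net 61 reads began at nucleotide 228 and 4 at nucleotide 252, and 57 of the 65 ended at nucleotide 257. On nucleotides 482 to 508, all 53 reads began at nucleotide 482 and 52 ended at 507. On nucleotides 605 to 622, all 45 reads had the same first and the same last nucleotide and were 18 nucleotides long. On nucleotides 629 to 657, all 43 reads began at nucleotide 629, and 38 ended at 655. The control had no hit on any of these stretches, where 3 reads would have been 0.00300% of its 35S reads. With identical ends, the counts of these stretches may stand for far fewer molecules than reads, which was not tested. The same limit applies to the control stretch and to other groups of reads that share a start.

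**Figure D2:**
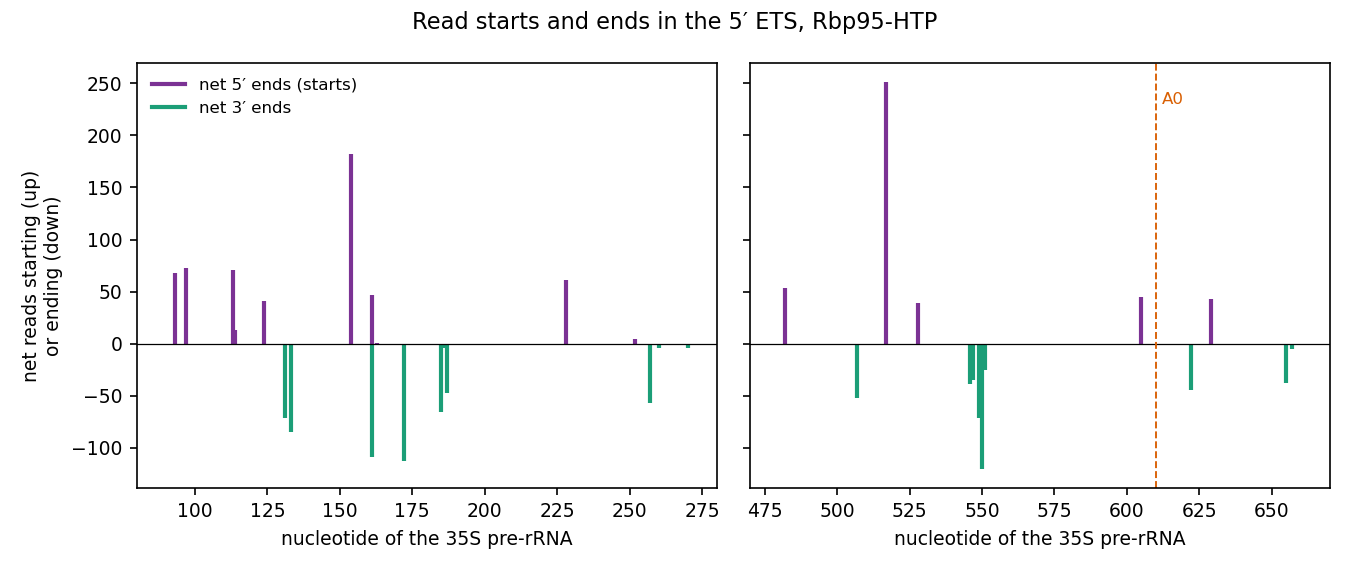
Net number of Rbp95-HTP reads that begin (upward bars) or end (downward bars) at each nucleotide (x axis) of the covered parts of the 5′ ETS, left for nucleotides 80 to 280 and right for 470 to 670, with the A0 site as a dashed line. The largest bar is the 251 reads that begin at nucleotide 517, and no net start or end falls on nucleotide 610.

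The 2 libraries differed most between the U3 pairing sites. The control had 99.7% of its 5′ ETS hits on nucleotides 401 to 444, with 1271 reads that began at nucleotide 401, 1 that began at 403, and 1268 that ended at 442. Rbp95-HTP had no hit in these 44 nucleotides, a difference of at least 424 times at nucleotides with 1272 control hits when 3 reads are taken as the limit. Nearly all control reads there had the same ends. This difference may therefore rest on far fewer molecules than reads, which was not tested. The control reads of the spacer had a mean length of 42.0 nucleotides and those of Rbp95-HTP of 30.9 nucleotides. A single start position thus held 99.6% of the control reads of the 5′ ETS. With Rbp95-HTP, 10 of 15 start positions were needed to reach 90% of the reads of the spacer. Over the whole 35S pre-rRNA, 5 start positions held 90% of the control reads, compared with 83 with Rbp95-HTP. The control reads were also longer on average there. Neither difference was therefore particular to the 5′ ETS. The remaining control hits of the 5′ ETS were 3 reads from nucleotide 175 to 216 and the read from nucleotide 517 to 549. The 3 reads overlapped the last 13 nucleotides of the first Rbp95-HTP stretch, where the latter had up to 117 hits.

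Neither U3 pairing site carried a hit in either library. They are shown with 20 nucleotides on either side, and capitals mark nucleotides with Rbp95-HTP hits, to show how near the covered stretches came.
U3 site at 281 (nucleotides 261 to 301): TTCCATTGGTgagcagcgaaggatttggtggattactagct
U3 site at 470 (nucleotides 450 to 490): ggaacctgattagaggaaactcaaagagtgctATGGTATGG
With Rbp95-HTP, the nearest hit lay 11 nucleotides upstream of nucleotide 281, at the thinly covered end of the second stretch with 4 hits, and 12 nucleotides downstream of nucleotide 470, at the start of the third stretch with 53 hits. Both sites lay in 1 gap of 211 nucleotides without a hit, from nucleotide 271 to 481. No gap in the Rbp95-HTP pileup of the 35S pre-rRNA was longer, out of 71, and the 3′ ETS without any hit had the same length. A share of 0.00308% of the 35S reads, or 3 reads, would not have been resolved there.

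Within 20 nucleotides of the sites, the mean number of hits with Rbp95-HTP was 0.976 at nucleotide 281 and 11.6 at nucleotide 470, compared with 43.7 over the 5′ ETS. These were 0.0223 and 0.266 times the mean of the spacer. That mean came mostly from 2 stretches with 82.8% of the hits, and only 247 of the 700 nucleotides were covered. A low ratio therefore does not by itself set these sites apart. Within 10 nucleotides both means were 0. The control had no hit within 20 nucleotides of either site, and its nearest hits were 65 nucleotides upstream of nucleotide 281 and 26 nucleotides upstream of nucleotide 470. In both libraries the sites themselves were thus free of hits.

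The U3 snoRNA itself was present in both libraries. The deposited snoRNA list of the Rbp95-HTP library gives 123 reads out of 100000 for SNR17A and 41 for SNR17B, the near-identical genes for U3, and that of the control gives 8170 for SNR17A and does not list SNR17B. How reads were divided between these copies is uncertain, and these values are out of another total than the pileup. The library with more U3 reads was also the one with the block of reads between the U3 sites, but a pair of libraries does not allow these values to be related, and this was not tested.

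Between nucleotide 1 and the first U3 site lay 59.2% of the 5′ ETS hits with Rbp95-HTP, between the U3 sites none, between the second U3 site and A0 35.2%, and between A0 and the end of the spacer 5.59%. These segments are 281, 189, 140 and 90 nucleotides long. In reads, the share downstream of A0 was 4.33% of those begun in the 5′ ETS (3.23 to 5.79%), and it came from the 43 reads that began at nucleotide 629. In the control, the segment downstream of A0 had no hit, and its last hit upstream of A0 was 61 nucleotides away. The spacer was therefore covered in 3 of its 4 segments with Rbp95-HTP and essentially in 1, the remaining segment, in the control.

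The A0 site itself was covered with Rbp95-HTP. The sequence from nucleotide 590 to 660 is given with the hits in capitals because it shows reads on both sides of the site.
A0 region: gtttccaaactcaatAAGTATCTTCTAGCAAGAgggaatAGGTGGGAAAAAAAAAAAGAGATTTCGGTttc
At T610, 45 hits were counted with Rbp95-HTP and none in the control. All 45 reads began 5 nucleotides before T610, at nucleotide 605, and extended to 12 nucleotides after it, at nucleotide 622, so that none of them ended at the site. The next stretch began 19 nucleotides downstream of T610 and contained a run of 11 A (nucleotides 636 to 646), the longest A run of the spacer, which all 43 reads covered. The mean within 20 nucleotides of the site was 21.9 hits, 0.500 times the mean of the 5′ ETS. Since the site is known only approximately and these are single groups of identical reads, the coverage does not measure how much of the RNA was cleaved there.

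Altered nucleotides, with a substitution or a deletion in the read, can mark the place of crosslinking in CRAC. In the 5′ ETS, 4 of the 231 nucleotides with at least 20 hits with Rbp95-HTP carried an alteration in 10% or more of their hits. This was 1.73%, compared with 0.981% of such nucleotides over the whole 35S pre-rRNA. None of the 42 nucleotides of the 5′ ETS with at least 20 hits in the control was altered to this extent, compared with 0.654% over the 35S pre-rRNA. The 4 nucleotides are shown in capitals at the ends of their stretches.
Nucleotides 149 to 187: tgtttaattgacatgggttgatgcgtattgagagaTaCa
Nucleotides 517 to 551: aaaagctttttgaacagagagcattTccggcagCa
They were T184 and C186 in the first stretch and T542 and C550 in the fourth. With 4 nucleotides, nothing is read from the difference between these shares.

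C186 had the highest altered share of the spacer, with 48 substitutions among 51 hits or 94.1% (84.1 to 98.0%). At T184, likewise 48 of 117 hits were substituted, 41.0% (32.5 to 50.1%). The control had 3 hits at each of these nucleotides and none was altered. At C550, 24 of 145 hits were substituted, 16.6% (11.4 to 23.4%), and the control had no hit. T542 was the only nucleotide of the 5′ ETS with deletions in the Rbp95-HTP library, with 35 deletions among 290 hits, 12.1% (8.81 to 16.3%), and no substitution, while the single control hit was not altered. T542 is the last of 3 consecutive T, from nucleotide 540 to 542, and a deletion of any of them gives the same read, so the deleted nucleotide is one of these.

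T184, C186 and C550 lay close to the 3′ ends of the reads that covered them. A net 66 reads ended at nucleotide 185, 4 at 186 and 47 at 187, so that T184 and C186 lay among the last nucleotides of these reads. The number of substitutions was the same at both, and it equalled the 47 reads begun at nucleotide 161 plus the 1 begun at 163. T184 and C186 may thus not be independent. If these reads were copies of the same molecule, the intervals given above would be too narrow, which was not tested. T542 lay 4 nucleotides before the nearest read end, and of the 290 reads over it a net 39 ended at nucleotide 546 and the other 251 further downstream. All 4 called nucleotides thus lay within 4 nucleotides of a downstream read end. This held for 55 of the 231 nucleotides with at least 20 hits, or 23.8%. The limit of 4 equals the distance of T542, the largest of the called nucleotides, and this measure was added after the values were seen. That all called nucleotides lay within it follows from the limit, so nothing is read from the comparison. The number of deletions at T542, 35, was the same as the net number of reads that ended at nucleotide 547. At C550, 120 reads ended on the nucleotide itself and 25 went 1 nucleotide further, close to the 24 substitutions. Since the pileup does not link nucleotides within a read, whether these were the same reads was not tested.

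Further altered nucleotides were found among those with few hits. Without a minimum of hits, 9 nucleotides reached the same altered share of 10%, the other ones being C258 and G259 with 4 of 8 hits each, T270 with 3 of 4, G656 with 3 of 5 and T657 with 4 of 5. These values rest on at most 8 reads each. All 9 altered nucleotides lay within 4 nucleotides of a downstream read end, as did 66 of the 247 covered nucleotides, or 26.7%. The limit was the same as above, and the thinly covered ones lay where most reads of their stretch had already ended. Nothing is read from this comparison either. Stretches 482 to 508 and 605 to 622 had no nucleotide altered in more than 3.77% of the hits, the value of C503 with 2 of 53, and at T610 it was 1 of 45 hits.

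**Figure D3:**
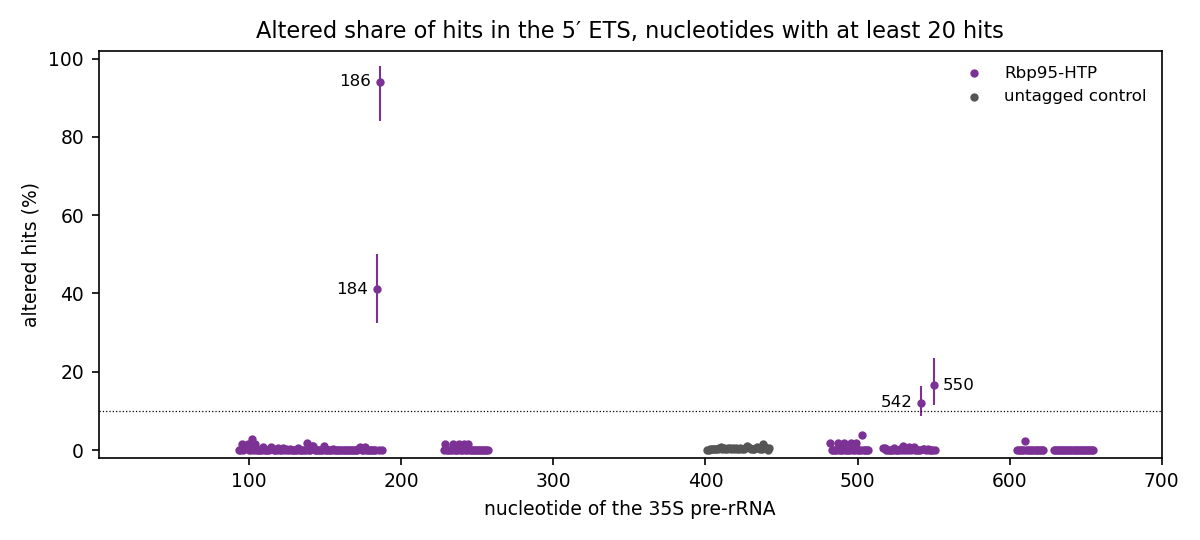
Percentage of hits with a substitution or deletion (linear y axis) at each nucleotide of the 5′ ETS with at least 20 hits (x axis), in purple for Rbp95-HTP and grey for the control; bars are 95% Wilson intervals of the 4 nucleotides at or above 10% (dotted line). These are 184 (41.0%), 186 (94.1%), 542 (12.1%) and 550 (16.6%), and all control points stay at or below 1.65%.

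Over the whole spacer, 231 hits were altered with Rbp95-HTP, 196 by substitution and 35 by deletion, and the 4 nucleotides held 155 or 67.1% of them. Including these, 0.755% of the hits were altered (0.664 to 0.858%), and without them 0.253%. On the rest of the 35S pre-rRNA, without nucleotides altered in 10% or more, the control had 0.279% and the Rbp95-HTP library 0.319%. In the control, 0.399% of the 5′ ETS hits were altered (0.349 to 0.456%), with a maximum of 1.65% at T438, which was 21 of 1272 hits. The 5′ ETS values of the libraries come from almost entirely different nucleotides, and their order depended on the 4 nucleotides. With Rbp95-HTP, 181 of the 231 nucleotides with at least 20 hits had no altered hit.

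The stretches shared the bases at their starts, which the choice of positions did not use. All 6 Rbp95-HTP stretches began with an A, and each was preceded by T (5 stretches) or C (1 stretch). Taken over all 15 start positions of the spacer, 14 followed a C or T and none a G, although C and T make up 46.9% and G 25.1% of its bases. An A was the first nucleotide at 11 of 15, compared with 28.0% A in the spacer. On the rest of the 35S pre-rRNA, 80.8% of 291 start positions followed a C or T and 60.8% began with A, so this feature was not particular to the 5′ ETS. The RNA was digested with RNace-IT, a mixture of RNase A, which cuts after C and U, and RNase T1, which cuts after G. Of the 21 end positions in the spacer, 10 were a C or T, 47.6%, close to the base composition. The control stretch also began with an A that followed a C.

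Base composition and predicted folding differed little between covered and uncovered nucleotides. The G and C content was 44.9% for nucleotides covered with Rbp95-HTP and 39.5% for those covered in neither library, and by stretch it ranged from 33.3% (605 to 622) to 59.3% (482 to 508). In a minimum free energy fold of the isolated 5′ ETS, 73.3% of the nucleotides covered with Rbp95-HTP and 71.6% of those covered in neither library were paired. In this prediction, nucleotides 178 to 187 at the end of the first stretch paired with 210 to 219, with a mean pair probability of 0.983, and the 3 control reads from nucleotide 175 to 216 ran across this hairpin. Nucleotides 608 to 613, which include T610, paired with 693 to 698 (0.961), 626 to 634 with 672 to 680 (0.992), and the innermost helix joined 644 to 651 with 656 to 663 (0.951). Just outside the innermost helix, nucleotides 637 to 642 paired with 665 to 670 at a lower probability of 0.551, so the hairpin is less certain there. The stretch over A0 thus lay in the 5′ arm of 1 long hairpin, and the next stretch ran along this arm and through the loop, where 43 hits were counted, with 5 hits at nucleotides 656 and 657 of the 3′ arm and none beyond. The fold takes neither U3 nor proteins into account.

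Of the parts of the 35S pre-rRNA that had hits with Rbp95-HTP, the 5′ ETS had the lowest mean. It had 43.7 hits per nucleotide, ITS2 55.0, the 18S rRNA 74.5 and ITS1 76.6, and the covered share was 35.3% compared with 66.8, 48.8 and 47.4%. In the control the means were 76.6 for the 5′ ETS, 0 for ITS2, 0.233 for the 18S rRNA and 0.205 for ITS1. Without the control stretch, the control mean over the other 656 nucleotides of the 5′ ETS was 0.242, similar to the last 2. ITS1, which is separated from the 5′ ETS by the 18S rRNA, had 958 reads from 8 start positions with Rbp95-HTP, and the 5′ ETS had 992 from 15. The 3′ ETS had no hit in either library. Of the Rbp95-HTP hits outside the 25S rRNA, 13.1% in the 5′ ETS stood next to 57.6% in the 18S rRNA, 11.9% in ITS1 and 5.48% in ITS2, whereas 95.1% of these hits in the control lay in the 5.8S rRNA. No test of these differences was possible with 1 library.

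**Figure D4:**
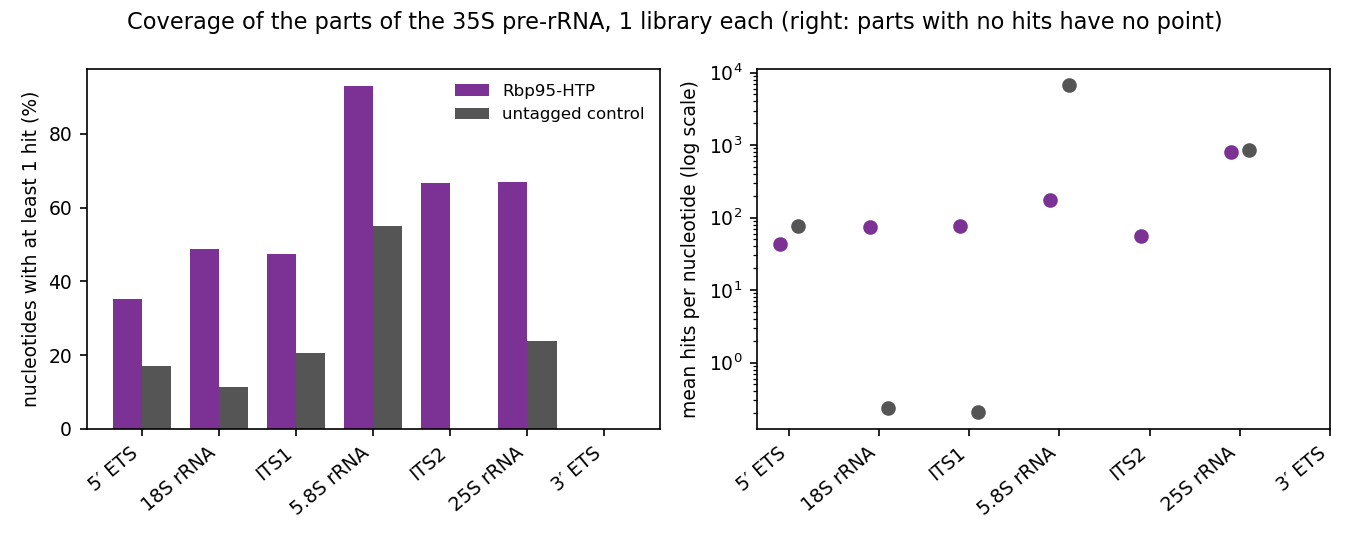
Percentage of nucleotides with at least 1 hit (left, linear axis from 0) and mean hits per nucleotide (right, log axis; parts with no hits have no point) for each part of the 35S pre-rRNA, 1 library each of Rbp95-HTP (purple) and the untagged control (grey). With Rbp95-HTP the 5′ ETS has 35.3% of its nucleotides covered and a mean of 43.7 hits, the lowest of the parts with hits, whereas the control mean of 76.6 is above those of the 18S rRNA (0.233) and ITS1 (0.205).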

How the data were processed

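CRAC libraries from Rbp95-HTP cells and from the untagged control were analysed (1 each). The authors trimmed reads with Flexbar, aligned them with Novoalign (build R64 per the labels) and used pyCRAC; versions are not given in the sources used here. The deposited pileups hold counts of hits, substitutions and deletions per nucleotide of the 35S pre-rRNA, made by the authors with pyPileup from at most 100000 reads. The deposited snoRNA lists hold a score, the number of reads out of 100000, of which only U3 was used. The deposited class tables were not used.

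Borders came from the R64 gene table, whose RDN37-1 has the length of the pileup. Read starts and ends were taken as net upward and downward steps, which are lower bounds because starts and ends on one nucleotide cancel. Stretches are runs of nucleotides with at least 1 hit. Nucleotides with at least 20 hits of which 10% or more were altered were called altered. Peaks were at least 30 nucleotides apart, and comparisons with the control counted fewer than 3 hits as 3. No test between libraries was possible, and intervals are Wilson intervals (95%). Folding used ViennaRNA 2.7.2 at default settings, and other steps Python 3.11.15, numpy 2.4.6, scipy 1.17.1 and matplotlib 3.10.9. The searches were tested on simulated pileups. Named were all stretches with at least 10 hits, both U3 sites, A0, the highest peaks, altered nucleotides and the largest read starts and ends. Smaller starts, ends and altered nucleotides with fewer hits, base composition, folding and the distance to read ends were added after their values were seen. The spacer and these rules were chosen with earlier results of these data known.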

Additional observations from a re-analysis of the deposited data

How the results depend on the processing

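No paired analysis was possible because there was 1 library per condition, and no setting adds a replicate. The 5′ ETS share of 35S hits (1.05% with Rbp95-HTP, 1.33% in the control) was 13.1% and 4.82% without the 25S rRNA in the total. The order of the libraries thus turned, but 95.1% of that total lay in the 5.8S rRNA in the control. The turn therefore depends on keeping the 5.8S rRNA. The share was 1.02% and 1.28% by read starts and 6.38% and 9.23% by covered nucleotides. Without the largest stretch of each library it was 0.493% and 0.00395%, and with the control share subtracted, the Rbp95-HTP share was -0.284%. The count of covered nucleotides and the omission of the largest stretches were chosen after seeing the data. Nucleotides with at least 100 hits numbered 123 with Rbp95-HTP, and in the control 42 had at least 10 and at least 100 hits. Averaged over 21 nucleotides, the highest points were at nucleotides 536 and 413. With the A0 border 10 nucleotides upstream or downstream, 6.47% or 4.12% of the Rbp95-HTP hits lay beyond it, and 4.33% by read starts. Around the U3 sites the Rbp95-HTP ratios were 0 and 0 within 10 nucleotides, and 0.393 and 0.539 within 50, where the control reached 3.79 at the second site because the window then took in its block of reads. Altered nucleotides numbered 1 by deletions alone, 2 at 20% and 9 without a minimum of hits (added after seeing the data). Another 19 values stayed within the limits set for counting error. Most of these were control values of 0 that remained 0, so they say little about how firm the results are.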
